A study of Mus musculus with 28 samples.

Results

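Expression of 8 genes of itaconate synthesis and the neighbouring citrate, isocitrate and acetyl-CoA steps was followed in macrophages sorted from the mouse pancreas during acute pancreatitis and its recovery. The genes were chosen by name, with earlier results of these data known. All 8 were found among the 25301 genes of the table: Acod1 (NCBI Gene ID 16365), Aco1 (11428), Idh1 (15926), Idh2 (269951), Cs (12974), Slc25a1 (13358), Acly (104112) and Ogdh (18293). All 8 passed the filter on low values that left 11960 genes for testing. The mice were C57BL/6J of WT genotype and their ages are not given in the labels. Pancreatitis was induced with caerulein, a cholecystokinin analogue that overstimulates the acinar cells, and macrophages were taken by fluorescence-activated sorting. There were 28 libraries in 6 groups: 3 labelled NC, an abbreviation that the labels do not explain, 5 from day 0 (D0), 6 each from day 1 with PBS or with lactate (D1 AP+PBS, D1 AP+Lac), and 4 each from day 3 with PBS or with lactate (D3 AP+PBS, D3 AP+Lac). The labels give neither the dose nor the route of lactate. They also do not state whether each library stands for its own animal, and p-values therefore measure the spread between these libraries, which may be technical.

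In activated macrophages the citrate cycle is tapped for signals and building blocks. Acod1 (also called Irg1) encodes the mitochondrial enzyme that removes carbon dioxide from cis-aconitate, an intermediate of aconitase, to give itaconate, which inhibits succinate dehydrogenase and pathogen enzymes and activates the NRF2 antioxidant response. Its transcription is induced by Toll-like receptor and interferon signals. Cs makes citrate, Slc25a1 carries it to the cytosol and Acly splits it there into acetyl-CoA and oxaloacetate. Aco1 is the cytosolic aconitase, which becomes the iron regulatory protein IRP1 when it loses its iron-sulphur cluster. Idh1 and Idh2 are the cytosolic and mitochondrial NADP-dependent isocitrate dehydrogenases, and Ogdh is the first enzyme of the 2-oxoglutarate dehydrogenase complex.

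Acod1 was the member that varied most, and its promoter is shown because it was also the only one of the 8 to hold any of 5 motifs searched. The RefSeq promoter table (build GRCm38.p6) matched all 8 genes, with 14 start sites, and the 250 bases before each start were read on both strands. The sequence before the Acod1 start lies on the plus strand of chr14:103046762-103047011, and the capitals mark a match to a kB site (GGANTTTCC, found here on the opposite strand), whose first base is 85 bases before the start:
Acod1: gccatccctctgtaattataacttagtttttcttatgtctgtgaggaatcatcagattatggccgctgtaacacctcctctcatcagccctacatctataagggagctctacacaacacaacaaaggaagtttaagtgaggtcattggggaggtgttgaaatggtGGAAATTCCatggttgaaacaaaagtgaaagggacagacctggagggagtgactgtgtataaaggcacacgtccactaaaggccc
This kB motif occurred in 1.07% of the 32817 promoters in the table. The other motifs were absent from these windows of all 8 genes: GAAANNGAA (ISRE), present in 7.12% of all promoters, TTCNNNGAA (STAT site, 7.01%), TGACNNNGC (antioxidant response element, 10.2%) and TCACNCCAC (sterol element, 1.05%). A match is a stretch of letters and was not tied to binding of any factor here.

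FPKM, the unit of the table, is a fragment count divided by the length assigned to the gene and by library depth. The order of levels between genes therefore depends on those lengths, which were not checked here. Cs had the highest mean over the 28 libraries (66.9 FPKM, above 91.7% of the genes tested), followed by Idh1 (52.1), Acly (32.7), Ogdh (28.7), Slc25a1 (16.7), Aco1 (14.6), Acod1 (14.3) and Idh2 (12.3). Acod1 ranged 76.8-fold between libraries, from 0.775 FPKM (79 fragments) to 59.5 FPKM (5672 fragments). The other 7 genes ranged between 1.88-fold (Aco1) and 2.71-fold (Idh1), and none of their values rested on fewer than 628 fragments. Csl, a near copy of Cs whose fragments could be confused with it, stayed at or below 0.0749 FPKM in every library.

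Depth, recovered from the steps of the FPKM values, was 33273303 to 41060490 fragments per library. Macrophage markers were abundant in all groups: Adgre1, which encodes F4/80, averaged between 142 FPKM at day 3 with PBS and 364 FPKM at day 1 with PBS. RNA of other cells was present as well, since the mean log2(FPKM + 1) of 13 acinar genes ran from 4.98 at day 0 to 8.99 in NC, and that of 11 T and NK cell genes from 1.83 at day 0 to 5.44 at day 3 with PBS. In bulk RNA a change in the share of a cell type and a change in RNA per cell cannot be told apart. D1 AP+PBS 5 stood farthest from its label. It correlated at r = -0.39 with the other PBS libraries of its day, after centring each gene, and at 0.60 with those given lactate. Other libraries also correlated best with a group not their own. D1 AP+Lac 2 and 3 and D1 AP+PBS 2 were nearest D3 AP+Lac, and D1 AP+Lac 4 and D3 AP+Lac 3 nearest D3 AP+PBS. D1 AP+Lac 6 was nearest D0 (r = 0.19, against 0.03 with its own group). Libraries 5 and 6 of both day 1 groups also lay together on the third principal component, from -34.7 to -22.2, while the other day 1 libraries lay from -6.34 to 15.2. Where leaving out D1 AP+PBS 5, or all 4 (chosen after seeing the data), changed a call of a member, the value without them is given beside the result.

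By group mean Acod1 was lowest in NC and highest after lactate at day 1, and it differed strongly within groups. In NC the 3 libraries had 0.918, 4.69 and 1.64 FPKM. At day 0 they had 7.07, 6.47, 10.8, 6.24 and 6.67 FPKM. All 5 day 0 libraries were above all 3 NC libraries. At day 1 with PBS the lowest of 6 values was 0.775, the median 2.97 and the highest 36.6 FPKM, the last in D1 AP+PBS 5, and the other libraries did not exceed 4.46. At day 1 with lactate the lowest was 13.0, the median 31.8 and the highest 44.3 FPKM. At day 3 the PBS libraries had 16.6, 2.16, 4.57 and 15.8 FPKM and the lactate libraries 28.2, 8.60, 59.5 and 1.76 FPKM. Both day 3 groups therefore spanned low and high values and overlapped widely. The order of the group means was D1 AP+Lac (28.3 ± 12.5 FPKM, SD, n = 6), D3 AP+Lac (24.5 ± 25.9, n = 4), D3 AP+PBS (9.79 ± 7.48, n = 4), D1 AP+PBS (8.15 ± 14.0, n = 6), D0 (7.46 ± 1.92, n = 5) and NC (2.42 ± 2.00, n = 3). Neighbours in this order differed by less than the larger of their SDs, except D0 and NC.

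**Figure D1:**
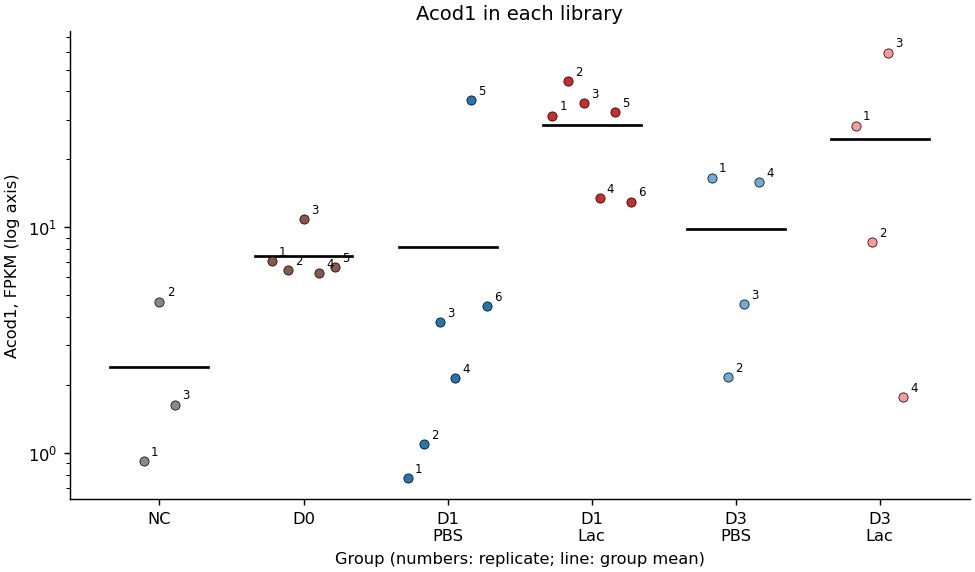
Acod1 in each of the 28 libraries, in FPKM on a log axis, by group; numbers are replicates and lines are group means. Of the day 1 PBS libraries only replicate 5, at 36.6 FPKM, lies within the range of the lactate libraries (13.0 to 44.3).

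The day 0 comparison with NC asked how the 8 genes stood at the start of the model. Aco1 fell from 17.8 ± 1.19 FPKM (SD, n = 3) to 13.9 ± 0.723 (n = 5), and Idh2 from 17.1 ± 1.73 to 12.7 ± 0.417 FPKM. The NC libraries had 15.8, 16.5 and 19.1 FPKM of Idh2, all above the day 0 libraries at 13.4, 12.4, 12.4, 12.4 and 12.6. The log2 differences were -0.33 (SE 0.10) for Aco1 and -0.41 (SE 0.15) for Idh2, with adjusted p = 0.0067 and 0.022 (limma, Benjamini-Hochberg over all genes tested). The Idh2 call was lost without NC 3 (-0.33, adjusted p = 0.11). Acinar markers stood at 4.98 at day 0 and 8.99 in NC (mean log2 level, exact permutation p = 0.036, adjusted p = 0.083). With the acinar marker level in the fit neither Aco1 (-0.31, adjusted p = 0.18) nor Idh2 (-0.09, 0.81) was called. The same held with the neutrophil marker level (-0.23, adjusted p = 0.11, and -0.25, 0.26) and with quantile scaling (-0.24, 0.099, and -0.30, 0.11). These were 2 of 8 members, whereas 61.1% of all genes tested were called in this comparison.

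For Acod1 the log2 difference was 1.44 (SE 0.84, adjusted p = 0.14). With only the NC and D0 libraries in the fit the same difference had adjusted p = 0.0023, the 1 call among 23 alternatives. Over these the log2 difference ran from -2.29, with the acinar covariate, to 1.91, and adjusted p from 0.0023 to 0.98. Cs (56.8 ± 5.02 FPKM in NC, 68.5 ± 4.62 at day 0) and Ogdh (26.5 ± 1.29 and 32.4 ± 1.84) also had all day 0 libraries above all NC libraries, at adjusted p = 0.11 and 0.056. In the fit of only NC and D0 both were called as well (limma, adjusted p = 0.017 and 0.0050), among 8640 genes. Over the 23 alternatives Cs was called in 5 and Ogdh in 6, with adjusted p up to 0.75 and 0.35. How many of all genes separate between these groups was not counted. Idh1 (57.8 ± 10.8 and 73.7 ± 10.4 FPKM), Slc25a1 (17.6 ± 0.696 and 17.6 ± 0.761) and Acly (32.4 ± 3.89 and 33.6 ± 3.73) overlapped between these groups. The direction called depended on scaling. The median log2 difference of all genes was -0.22, and median-ratio scaling moved it by 0.25. With this scaling neither Aco1 (-0.04) nor Idh2 (-0.12) was called, and Idh1, Cs, Acly and Ogdh were higher (0.65, 0.57, 0.35 and 0.58). Of all genes called, 32.3% were higher in the deposited scaling and 53.4% under median-ratio scaling.

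The 15 citrate cycle genes outside the 8 were split at day 0, with 6 higher and 3 lower (median log2 difference 0.28). Over all genes tested, 19.7% were called higher and 41.4% lower, with a median of -0.22, and the counts of each list stand beside these shares. Sdhb and Sdhc, subunits of the succinate dehydrogenase that itaconate inhibits, rose by log2 differences of 0.67 and 0.57, and Suclg2, a succinyl-CoA ligase subunit, changed by -0.80. Sdha, the catalytic subunit, had -0.01 and Idh3a 0.50, neither of them called. Of 15 NRF2 target genes 10 rose and 1 fell (median 0.71), led by Pgd (1.30), Taldo1 (0.82) and Srxn1 (1.00). Of 10 genes of fatty acid synthesis and cytosolic acetyl-CoA 1 rose and 5 fell (median -0.41). Elovl1 rose (0.62), while Elovl5 (-0.54) and Acss2 (-0.92), which makes acetyl-CoA from acetate, fell. Of 21 inducers and partners of Acod1 5 rose and 5 fell, with 1.86 for Myd88 and 2.93 for Irf7, and -0.70 for Ifngr1. Beside these changes, neutrophil markers had a mean log2 level of 2.84 at day 0 against 1.62 in NC, and T and NK cell markers 1.83 against 3.56. Neither list overlapped between the groups, each at the smallest exact permutation p that 5 against 3 libraries allow (two-sided, 0.0357, adjusted p = 0.083 over 56 tests). Their part in the result was not tested apart from the alternatives with marker covariates.

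Between day 0 and day 1 with PBS, only Aco1 was called, at 16.3 ± 2.13 FPKM (n = 6) against 13.9 ± 0.723 (log2 difference 0.21, SE 0.08, adjusted p = 0.034, limma). That is 1 of 8 members beside 62.9% of all genes. The median over all genes was 0.19 and median-ratio scaling moved it by -0.22, taking the share of called genes that were higher from 68.4% to 46.0%. The sign of this Aco1 difference turned to -0.06 under median-ratio scaling, and the call was lost when any 1 of 5 libraries was left out (D0 1 and 3, D1 AP+PBS 1, 4 and 6), where log2 differences ran from 0.16 to 0.20. It was also lost with quantile scaling (0.11, adjusted p = 0.37), with the acinar covariate (0.20, 0.14), with the neutrophil covariate (0.14, 0.23), without the filter (adjusted p = 0.060) and with only these 2 groups in the fit (adjusted p = 0.058). Markers of other cells moved in this comparison as well. The mean log2 level was higher at day 1 by 3.50 for B and plasma cells, 2.18 for T and NK cells, 2.01 for acinar cells, 1.59 for fibroblasts and stellate cells and 1.43 for dendritic cells, and that of neutrophils differed by -0.87 (exact permutation tests, adjusted p = 0.048 each). Without D1 AP+PBS 5, Acod1 (-1.403, adjusted p = 0.046) and Idh2 (0.25, adjusted p = 0.043) were called as well, as they were without libraries 5 and 6 of both day 1 groups (-1.60, 0.035, and 0.27, 0.037). Across its 27 alternatives Acod1 had log2 differences from -1.60 to 1.07 and adjusted p from 0.035 to 0.999, and Idh2 from 0.037 to 0.92. Of the NRF2 target genes 10 of 15 fell (median -0.57, against 0.19 over all genes), led by Pgd (-1.17), Srxn1 (-1.19) and Taldo1 (-0.69). Over all genes tested, 43% were called higher and 19.8% lower. Among the other citrate cycle genes 5 rose and 6 fell, with 0.73 for Idh3g and for Fh1, -0.82 for Mdh2 and -0.76 for Idh3a.

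From day 1 to day 3 with PBS Aco1, Idh1 and Idh2 fell together. Idh1 had a mean of 60.9 ± 14.1 FPKM at day 1 (n = 6; lowest 45.0, median 60.8, highest 76.98) and 30.9, 39.0, 30.9 and 36.8 FPKM in the 4 libraries of day 3. Every day 3 library was below every day 1 library, and the share of all genes that separate in this way was not counted. Idh2 had 14.3 ± 2.89 FPKM at day 1 and 8.31, 11.5, 10.7 and 7.76 at day 3, and overlapped only through D1 AP+PBS 5 at 9.15. Aco1 had 16.3 ± 2.13 at day 1 and 10.4, 12.8, 13.5 and 12.3 FPKM at day 3, and overlapped through the same library at 13.4. The log2 differences were -0.78 (SE 0.17, adjusted p = 0.0018) for Idh1, -0.52 (SE 0.13, adjusted p = 0.0046) for Idh2 and -0.38 (SE 0.09, adjusted p = 0.0024) for Aco1, by limma. These 3 of 8 stand beside 34.3% of all genes called. The 3 differences kept their direction and call under quantile and median-ratio scaling, while the share of called genes that were higher went from 62.6% to 44.5% and 43.2%.

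The remaining 5 genes were not called between day 1 and day 3 with PBS. Cs had 60.8 ± 6.44 and 67.5 ± 4.197 FPKM, Acly 30.9 ± 2.88 and 29.2 ± 4.89, Ogdh 27.8 ± 2.67 and 25.2 ± 3.21, and Slc25a1 16.8 ± 2.02 and 14.8 ± 3.47. The Acod1 difference of 0.84 had a wide interval, from -0.68 to 2.36 on the log2 scale (95%). It was 1.44 without D1 AP+PBS 5 (adjusted p = 0.079), 1.64 without libraries 5 and 6 of both day 1 groups (0.061) and 2.34 with the acinar covariate (0.0088). Of the other citrate cycle genes 2 rose and 5 fell, with -0.39 for Sdhb, -0.42 for Idh3g and 0.28 for Dld. Over all genes tested, 21.5% were called higher and 12.8% lower. Among the genes supplying 2-oxoglutarate, 1 rose and 3 of 12 fell, with -0.80 for Gpt2 and -0.87 for Got1.

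The fall of Aco1, Idh1 and Idh2 coincided with lower macrophage markers. The mean log2 level of 12 macrophage markers was 8.68 ± 0.30 at day 1 with PBS (8.35 to 9.01) and 7.58 ± 0.27 at day 3 (7.34 to 7.91), and the groups did not overlap (exact permutation p = 0.0095, adjusted p = 0.048). At day 3 the markers of T and NK cells were higher by 1.43 (4.01 and 5.44) and dendritic cell markers by 1.24 (3.49 and 4.73), each with the same p. Of the tested list genes, 11 of 12 macrophage markers fell, and 10 of 11 T and NK cell markers and 9 of 9 dendritic cell markers rose. When the macrophage marker level entered the fit, which was chosen after seeing the data, Idh1 had -0.17 (adjusted p = 0.58), Idh2 -0.37 (0.22) and Aco1 -0.18 (0.32), and 0 of 8 members and 183 genes were called. With the T and NK cell and dendritic cell marker level in its place, also chosen after seeing the data, the Idh1 difference turned to 0.03 (adjusted p = 0.96), Idh2 had -0.25 (0.57) and Aco1 -0.13 (0.64), and 0 members and 25 genes were called. Over all 28 libraries the macrophage marker level had Pearson r = 0.85 with Idh1, 0.57 with Idh2, 0.52 with Aco1, -0.63 with Cs and -0.25 with Acod1. Idh1 had r = -0.86 with the T and NK cell, -0.77 with the dendritic cell and -0.70 with the B and plasma cell list. Acod1 had 0.50 with the neutrophil and -0.48 with the acinar list. All of these are a description over libraries that share groups. Over its 26 alternatives the Idh1 difference was called in 24, as were those of Idh2 and Aco1, and adjusted p ran up to 0.96, 0.57 and 0.64.

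**Figure D2:**
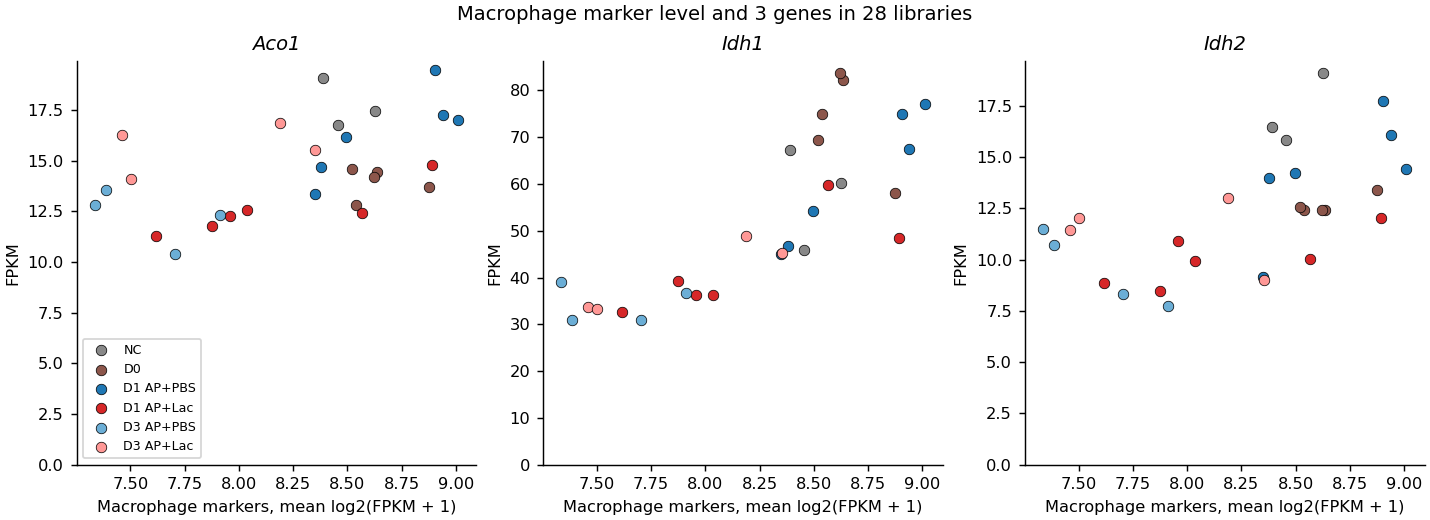
Aco1, Idh1 and Idh2 in FPKM against the mean log2(FPKM + 1) of 12 macrophage markers in the 28 libraries, coloured by group. Of the genes shown, Idh1 follows this marker level most closely (r = 0.85), and it had r = -0.86 with the T and NK cell markers. The day 3 PBS libraries lie at 7.34 to 7.91 on the marker axis.

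Set against NC, the day 1 PBS group had 0 of 8 members called by limma, and 0 at an unadjusted p under 0.05 and 0 with limma-voom on the recovered fragments, while 14.5% of all genes were called. The day 3 PBS group had 3 members called, all lower, beside 21.2% of all genes. Aco1 was at 12.3 ± 1.35 against 17.8 ± 1.19 FPKM, Idh1 at 34.4 ± 4.15 against 57.8 ± 10.8 and Idh2 at 9.56 ± 1.80 against 17.1 ± 1.73. For each of the 3 genes all 4 day 3 libraries were below all 3 NC libraries. How many of all genes separate in this way was not counted. The adjusted p-values by limma were 0.0012, 0.015 and 7.8e-04, with log2 differences of -0.50, -0.72 and -0.79. Of these, Idh1 was not called without NC 2 (-0.61, adjusted p = 0.076) or NC 3 (-0.68, 0.069). With the macrophage covariate Idh2 was still called (-0.67, adjusted p = 0.029) and Aco1 (-0.34, 0.068) and Idh1 (-0.22, 0.49) were not. With the T and NK cell and dendritic cell covariate 0 members were called, at -0.56 for Idh2 (adjusted p = 0.16), -0.29 for Aco1 (0.25) and -0.03 for Idh1 (0.96). With the lymphocyte covariate Idh1 was not called (-0.35, 0.19). The macrophage list stood at 7.58 at day 3 and 8.49 in NC, and the T and NK cell list at 5.44 and 3.56 (each exact permutation p = 0.057, the smallest possible here, adjusted p = 0.11). Over their 22 alternatives adjusted p ran from 0.0010 to 0.25 for Aco1, from 0.0055 to 0.96 for Idh1 and from 2.8e-04 to 0.16 for Idh2. Of all genes called, 48.8% were higher in the deposited scaling and 32.3% under median-ratio scaling.

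Lactate at day 1 was the comparison with most members called. Acod1 was higher with lactate and Aco1, Idh1 and Idh2 were lower, and Cs, Slc25a1, Acly and Ogdh were not called. Acod1 had 28.3 ± 12.5 FPKM (SD, n = 6) with lactate and 8.15 ± 14.0 (n = 6) with PBS, a log2 difference of 2.49 (SE 0.66, adjusted p = 0.020, limma), or 5.60-fold on the scale of FPKM + 1. Without D1 AP+PBS 5 the PBS mean was 2.45 ± 1.63 FPKM (n = 5) and the log2 difference was 3.08 (adjusted p = 5.3e-04, limma). Every lactate library was then above every PBS library. That separation follows from leaving out the only PBS library above any lactate value. The share of all genes that separate so was not counted. Without D1 AP+PBS 5, 2380 genes were called in place of 1162. Without libraries 5 and 6 of both groups 3426 genes and the same number of members, 4, were called, with log2 differences of 3.43 for Acod1, -0.46 for Aco1, -0.71 for Idh1 and -0.65 for Idh2. Aco1 had 12.3, 12.5, 11.3, 11.8, 12.4 and 14.8 FPKM with lactate, in replicates 1 to 6, and a lowest, median and highest value of 13.4, 16.6 and 19.5 FPKM with PBS. Its 2 groups overlapped only between D1 AP+Lac 6 and the PBS libraries 2 and 5.

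Idh1 had a lowest, median and highest value of 32.7, 37.8 and 59.7 FPKM with lactate and 45.0, 60.8 and 76.98 with PBS. The D1 AP+Lac libraries 5 and 6 (59.7 and 48.4 FPKM) lay among the PBS values. Idh2 had 8.45, 9.99 and 12.05 FPKM with lactate and 9.15, 14.3 and 17.7 with PBS, overlapping only through D1 AP+PBS 5 at 9.15. The log2 differences were -0.35 (SE 0.08, adjusted p = 0.012) for Aco1, -0.52 (SE 0.16, adjusted p = 0.035) for Idh1 and -0.45 (SE 0.12, adjusted p = 0.019) for Idh2, by limma. Thus 4 of 8 members were called beside 9.72% of all genes. The 95% intervals of the other members were -0.14 to 0.33 for Cs, -0.25 to 0.21 for Slc25a1, -0.22 to 0.26 for Acly and -0.27 to 0.14 for Ogdh.

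**Figure D3:**
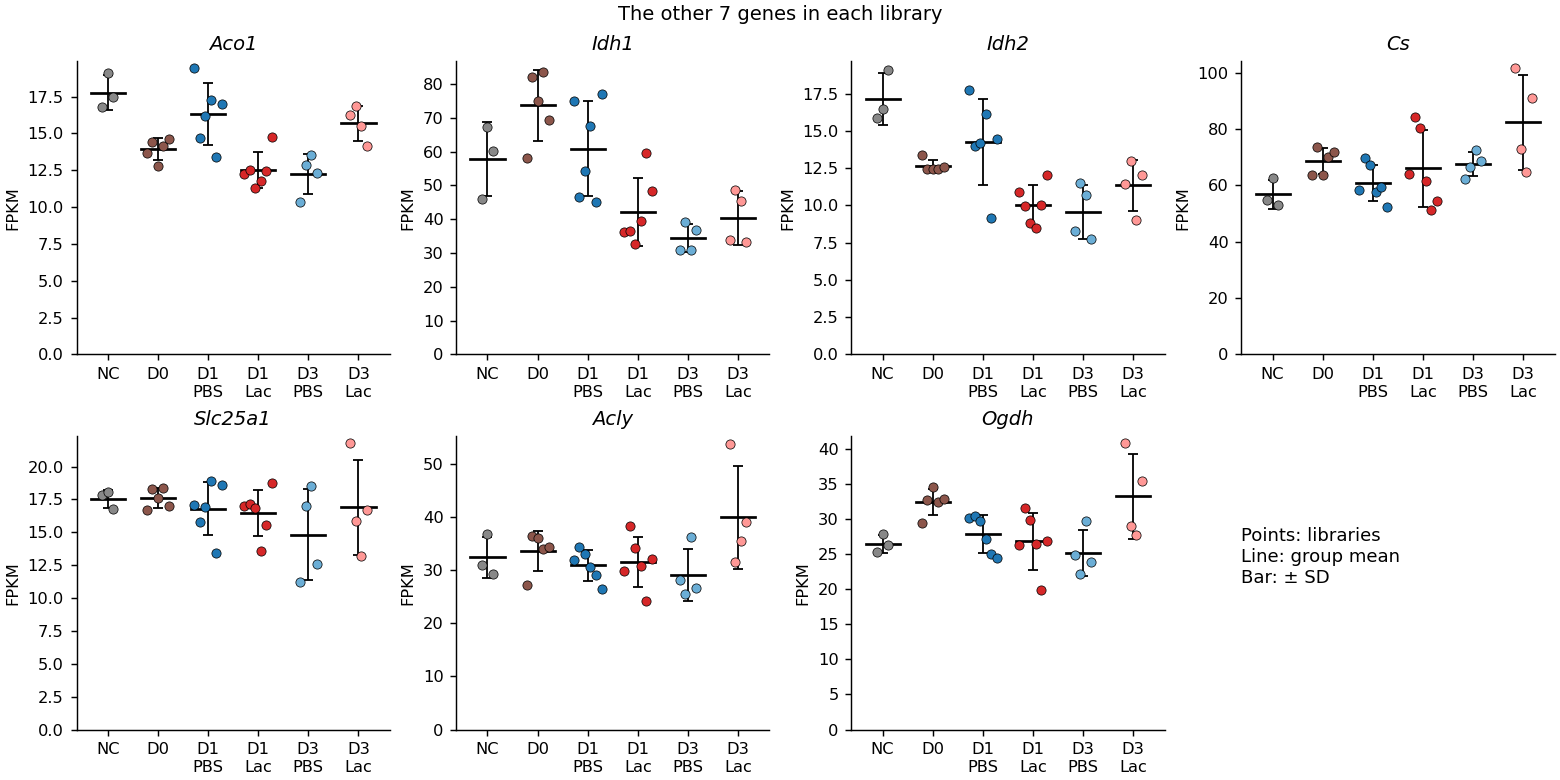
The other 7 genes in FPKM, 1 point per library, with group means and SD, on axes that start at 0. Aco1, Idh1 and Idh2 are lower in the day 1 lactate and day 3 PBS groups than in the day 1 PBS group, whereas the group means of Slc25a1 stay between 14.8 and 17.6 FPKM.

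These 4 calls were lost in several alternatives. With only the 12 libraries of day 1 in the fit, 0 members and 0 of 11960 genes were called, although 4 members and 2282 genes had an unadjusted p under 0.05, and the 4 members had adjusted p = 0.12 (Acod1, Aco1 and Idh2) and 0.14 (Idh1). Without D1 AP+PBS 1 or D1 AP+PBS 4 only Aco1 was called among the members, and 191 and 210 genes in all. The Idh1 call was also lost without D1 AP+PBS 6 or any 1 of D1 AP+Lac 1 to 4 (adjusted p = 0.068 to 0.095), and that of Idh2 without D1 AP+Lac 4 (adjusted p = 0.0503). Over 28 alternatives Aco1 was called in 25, Acod1 and Idh2 in 21 each and Idh1 in 14, with adjusted p up to 0.29, 0.23, 0.34 and 0.88, and all 4 kept their direction in each. Dendritic cell markers were higher with lactate (4.09 ± 0.16 against 3.49 ± 0.25, exact permutation p = 0.0022, the smallest 6 against 6 libraries allow, adjusted p = 0.048). The T and NK cell list stood at 4.97 ± 0.61 and 4.01 ± 0.63 (exact permutation p = 0.026, adjusted p = 0.083 over 56 tests). The macrophage list had 8.16 ± 0.48 with lactate and 8.68 ± 0.30 with PBS, and the neutrophil list 2.40 ± 0.62 and 1.97 ± 0.42. Of the tested list genes, 5 of 9 dendritic cell, 4 of 11 T and NK cell and 1 of 11 neutrophil markers rose, and 5 of 12 macrophage markers fell. Over all genes tested, 5.16% were called higher and 4.56% lower. With the macrophage covariate the log2 differences were 2.55 for Acod1, -0.26 for Aco1, -0.23 for Idh1 and -0.38 for Idh2, with 0 members called. With T and NK cell and dendritic cell markers as the covariate they were 2.31, -0.21, -0.05 and -0.29, again with 0 members called. With the neutrophil covariate only Aco1 was called among the members (-0.32, adjusted p = 0.039), and Acod1 had 1.99 (0.072), Idh1 -0.46 (0.10) and Idh2 -0.39 (0.066). With the lymphocyte covariate 3 members were called, without Idh1 (-0.38, 0.054), and with the acinar covariate 4. The 11 tested neutrophil markers had a median log2 difference of 0.62 with lactate, against 0.02 over all genes. On that list Ly6g was at a mean of 0.289 FPKM with lactate and 0.0362 with PBS, and Mpo at 0.126 and 0.192 FPKM. Both lie near the floor, go opposite ways and do not stand for the list.

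Among the 21 inducers and partners of Acod1, 6 rose with lactate at day 1 and 3 fell (median 0.02, against 0.02 over all genes). Among the 3 with the smallest p were the interferon regulatory factor Irf8 (111 ± 11.4 FPKM with PBS, 147 ± 20.1 with lactate, log2 difference 0.39) and the interferon signalling factor Stat2 (41.7 ± 34.8 and 96.8 ± 37.0, 1.40), with adjusted p = 0.013 and 0.016 by limma. Of the 15 citrate cycle genes outside the 8, 0 rose and 1 fell by limma (1 with limma-voom, and 1 at an unadjusted p under 0.05), beside 9.72% of all genes called. It was Idh3g (-0.31), and Idh3a had 0.18 and Sdha -0.04. Of 12 genes of pyruvate entry 1 rose and 1 fell (Pdp2 0.31, Pdk2, a kinase that shuts pyruvate dehydrogenase, -0.69, while Pdk3 at 0.50 was not called). Of 12 genes supplying 2-oxoglutarate 1 rose and 2 fell, with -0.51 for Gpt2, 0.40 for Slc25a12 and -0.48 for Got1. Among 15 NRF2 targets 1 rose and 2 fell, with -0.57 for Ftl1, 0.45 for Slc7a11 and -0.67 for Hmox1. None of the 5 genes of itaconyl-CoA formation and breakdown was called (0 at an unadjusted p under 0.05 and 0 with limma-voom), among them Clybl, which takes part in itaconate breakdown, at -0.13. None of the 10 fatty acid synthesis genes was called (2 at an unadjusted p under 0.05, 0 with limma-voom), and 0 of 7 iron regulation genes (2 and 1).

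At day 3 lactate gave another picture. No member was called by limma (0 with limma-voom, 3 at an unadjusted p under 0.05), beside 0.376% of all genes. Aco1 had 16.3, 16.9, 15.5 and 14.1 FPKM with lactate against 10.4, 12.8, 13.5 and 12.3 with PBS, without overlap. Its log2 difference was 0.33 (SE 0.10, adjusted p = 0.10). The share of all genes without overlap was not counted. With the lymphocyte covariate the Aco1 difference was called (0.35, adjusted p = 0.036). The other members with an unadjusted p under 0.05 were Acly (40.0 ± 9.69 against 29.2 ± 4.89 FPKM, 0.43, adjusted p = 0.14) and Ogdh (33.2 ± 6.04 against 25.2 ± 3.21, 0.38, adjusted p = 0.13). D3 AP+Lac 1 held the highest value of all 28 libraries for Cs (102 FPKM), Slc25a1 (21.8), Acly (53.8) and Ogdh (40.8). Cs had 82.4 ± 16.8 with lactate against 67.5 ± 4.197 FPKM with PBS, and Slc25a1 16.9 ± 3.59 against 14.8 ± 3.47. The Acod1 difference of 0.79 had a 95% interval from -0.88 to 2.46, and it turned to -0.82 with the acinar covariate (adjusted p = 0.49). Idh1 had 40.2 ± 7.94 against 34.4 ± 4.15 and Idh2 11.4 ± 1.71 against 9.56 ± 1.80 FPKM. Acinar markers stood at a mean log2 level of 6.87 with lactate and 8.61 with PBS. B and plasma cell markers had 7.09 and 6.22, and T and NK cell markers 5.01 and 5.44 (each exact permutation p = 0.086, adjusted p = 0.15). All 13 acinar genes had an unadjusted p under 0.05 by limma (median log2 difference -1.75), and 0 were called. The part of these markers in the result was not tested apart from the alternatives with marker covariates. With the macrophage covariate 4 members were called, all higher: Aco1 (0.28, adjusted p = 0.049), Cs (0.39, 0.020), Acly (0.52, 0.020) and Ogdh (0.46, 0.017), and 1117 genes instead of 45. Their adjusted p ran up to 0.25, 0.68, 0.41 and 0.36 over 23 alternatives each. Of the 15 citrate cycle genes outside the 8, 0 were called by limma (0 with limma-voom, 2 at an unadjusted p under 0.05), with 0.31 for Fh1.

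**Figure D4:**
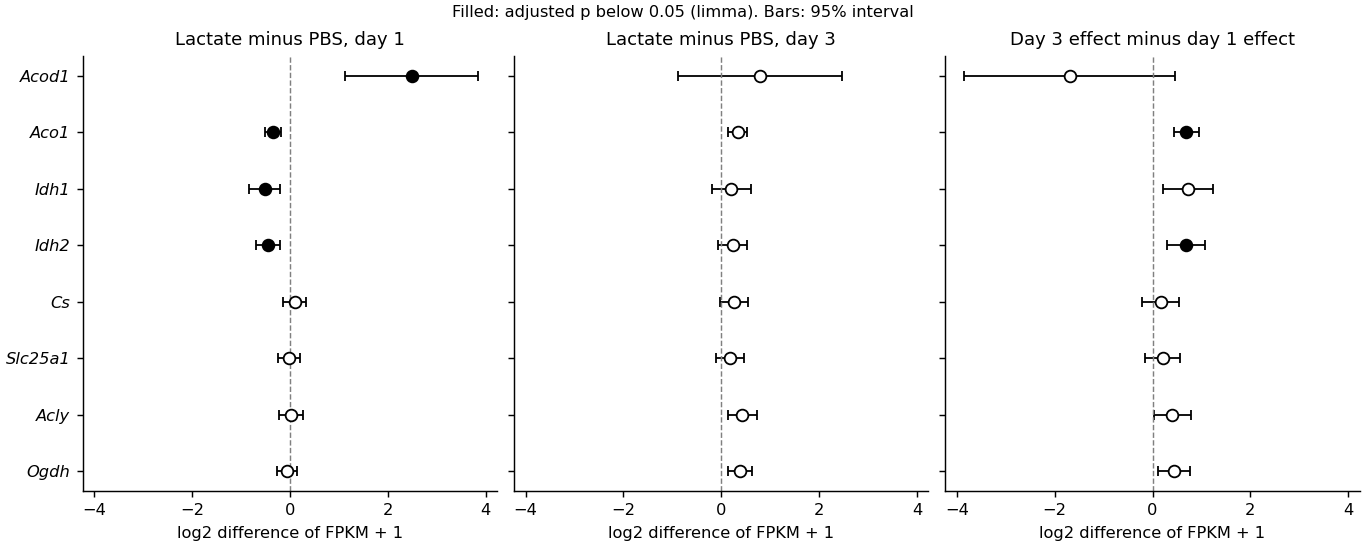
Log2 difference of FPKM + 1 between lactate and PBS at day 1 and day 3, and the day 3 difference minus that of day 1, with 95% intervals; filled points passed an adjusted p of 0.05. The points of Aco1, Idh1 and Idh2 lie below 0 at day 1 and above 0 at day 3. No member is called at day 3, where the intervals of Idh1 (-0.18 to 0.60) and Idh2 (-0.07 to 0.53) include 0.

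The difference between the lactate effects was tested directly. It was called for Aco1 (0.69, SE 0.13, adjusted p = 0.0046) and Idh2 (0.68, SE 0.19, adjusted p = 0.023), 2 of 8 members beside 10.7% of all genes. Both had a lower level with lactate at day 1 and a higher mean with lactate at day 3. Idh1 had 0.73 (SE 0.25, adjusted p = 0.057), Ogdh 0.44 (0.070), Acly 0.41 (0.15), Cs 0.17 (0.60) and Slc25a1 0.20 (0.48). For Acod1 it was -1.70 (SE 1.04, adjusted p = 0.31), and 2 of 36 alternatives called it: -2.64 (adjusted p = 0.046) without libraries 5 and 6 of both day 1 groups, and -2.94 (0.017) with the acinar covariate. Without D1 AP+PBS 5 it was -2.29 (0.072), and Idh1 (0.80, 0.021) and Ogdh (0.47, 0.042) were called, with 2262 genes in place of 1280. Without all 4 of libraries 5 and 6, Idh1 (0.92, 0.0036) and Ogdh (0.42, 0.034) were called too. With T and NK cell and dendritic cell markers as the covariate Idh1 had -0.04 (0.94). The Aco1 call held in 35 of 36 alternatives and was lost (0.45, adjusted p = 0.092) with T and NK cell and dendritic cell markers as the covariate, where Idh2 had 0.42 (adjusted p = 0.27). The Idh2 call held in 30. It was lost with only the 4 groups compared in the fit (adjusted p = 0.068), with the macrophage covariate (0.57, adjusted p = 0.064) and without D3 AP+Lac 2 (0.62, adjusted p = 0.061), D3 AP+PBS 1 (0.63, 0.055) or D3 AP+PBS 4 (0.60, 0.053). Over the 36, adjusted p for Aco1 ran from 7.5e-05 to 0.092 and for Idh2 from 5.2e-04 to 0.27. Dendritic cell markers, higher with lactate at day 1, stood at 4.19 with lactate and 4.73 with PBS at day 3 (exact permutation p = 0.029, adjusted p = 0.083), and their part in the result was not tested beyond that covariate.

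Ratios within a library largely remove the scaling of that library. Of 28 ratio tests, 0 passed adjustment by the exact permutation test (smallest adjusted p = 0.12), and 9 had an unadjusted p under 0.05. The log2 ratio of Idh1 to Idh2 was higher at day 0 than in NC by 0.76 (2.44 ± 0.25 against 1.68 ± 0.25), the ranges did not overlap, and p = 0.036 was the smallest that the exact test on 5 and 3 libraries allows. Acly to Cs had its highest mean in NC (-0.79 ± 0.04) and its lowest at day 3 with PBS (-1.19 ± 0.18).

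**Figure D5:**
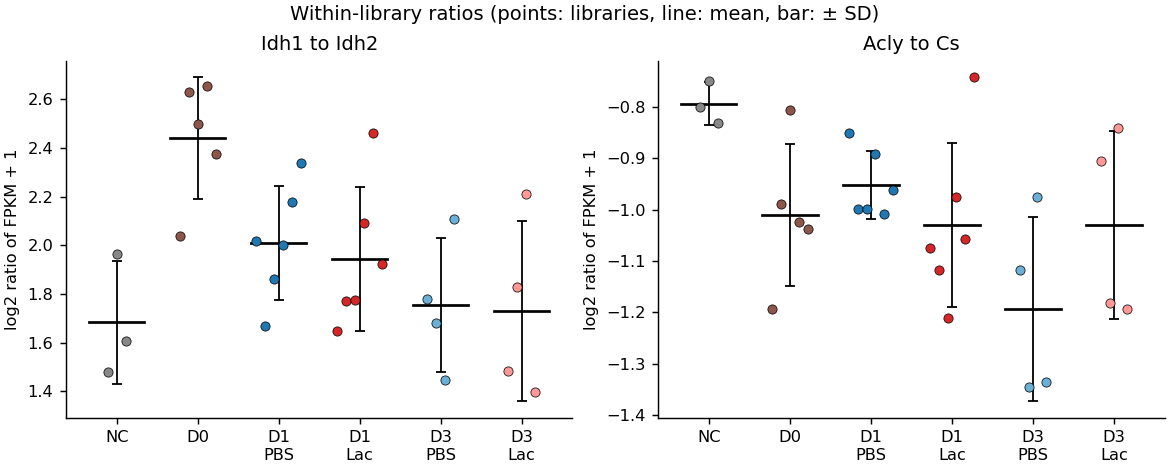
Log2 ratios of FPKM + 1 within each library for 2 gene pairs, by group, with group means and SD. The mean ratio of Idh1 to Idh2 is highest at day 0 (2.44) and that of Acly to Cs is lowest at day 3 with PBS (-1.19).

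Over the 28 libraries the 8 genes fell into loose sets. Aco1 and Idh2 had Pearson r = 0.83 on the log2 scale, Acly and Ogdh 0.88, Cs and Acly 0.74, Cs and Ogdh 0.74, and Acod1 and Idh2 -0.77. Among 7482 genes with a mean of at least 5 FPKM, those most like Acod1 were Batf2 (0.91), Samhd1 (0.91) and Il18bp (0.90). Dusp3 (0.96) and Vsir (0.92) were among the 3 most like Idh1, and those most like Aco1 were Slc48a1 (0.90), Snx9 (0.87) and Retsat (0.86). Idh2 was most like Arsa (0.88), Itsn1 (0.86) and Ilk (0.86), and Cs most like Snrnp40, Eftud2 and Hars (0.93 each). Actn4 (0.93) and Ganab (0.92) were among the 3 most like Ogdh. Acly was most like Ogdh, Ankrd52 (0.87) and Smarca4 (0.85), and Slc25a1 most like Akt1 (0.79), Rab35 (0.78) and Ssbp4 (0.76). These values describe libraries that share groups and cell mixtures, and they were not tested. Within the 6 libraries of a day 1 group Acod1 was set against the 7 other genes and 2 marker lists, 18 relations in all, chosen after seeing the data. None passed adjustment (smallest adjusted p = 0.35, for neutrophil markers with lactate: r = 0.76, exact permutation p = 0.019, Spearman rho 0.83, p = 0.058, and r = 0.97 without the 2 farthest libraries). With PBS, Acod1 and Idh2 had r = -0.93 (exact p = 0.050), Spearman rho -0.60 (p = 0.24) and r = -0.02 without the 2 farthest libraries, so that relation rests on them.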

How the data were processed

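RNA of sorted pancreatic macrophages was sequenced in 28 libraries. The deposited table gives FPKM per gene and library, a unit taken from the authors' naming of the table. Fastp and R 3.2.0 appear in the submitters' processing notes; for the aligner, the counter and the build, what was used is not given in the sources used here. All values above 0 were whole multiples of 1 fragment (tolerance 0.0001), which gave the fragments per library.

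Groups were compared with limma 3.58.1 (R 4.3.3) on log2(FPKM + 1) in 1 fit of all libraries, with a variance trend and robust moderation. Genes with at least 1 FPKM in at least 3 libraries were tested, p-values were adjusted by Benjamini-Hochberg over them, and a gene was called below 0.05. The procedure was tested on simulated data. Marker lists and ratios were compared by exact two-sided permutation tests (Python 3.11.15, scipy 1.17.1). Within groups, 55 pairs of libraries had chi-squares of at least 26.4 per degree of freedom, so none was counted as a duplicate. From each gene list up to 3 genes with the smallest p were named, and Idh3a, Sdha and Csl whatever their result; some genes that this rule names, and the ratios that need them, are not reported here. The members and lists were chosen with earlier results of these data known. Alternatives varied the pseudocount, filter, scaling, covariates, libraries and variance model, and used limma-voom on the fragments.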

Additional observations from a re-analysis of the deposited data

Results flagged for a closer look

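Of 40 combinations of a member and a group of 4 to 6 libraries, 5 had 1 library whose distance from its nearest neighbour took up an unusually large share of the group's range; chance gives about 1 in 20. D1 AP+PBS 5 was such a library for Acod1 (36.6 FPKM, share 0.632) and for Idh2 (9.15 FPKM, share 0.634). At day 0, library 3 stood high for Acod1 (10.8 FPKM, share 0.780), and library 1 stood high for Idh2 (13.4 FPKM, share 0.822) and low for Acly (27.2 FPKM, share 0.752).

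The lactate effect differed between day 3 and day 1 by the interaction test for Aco1 (log2 0.69, adjusted p = 0.0046) and Idh2 (0.68, adjusted p = 0.023), by limma. Aco1 was lower with lactate in the day 1 means (12.5 and 16.3 FPKM) and higher in the day 3 means (15.7 and 12.3 FPKM).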

How the results depend on the processing

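Of 1000 member differences under the alternatives, 859 kept direction and side of the threshold, 50 lost the call, 45 gained it and 46 turned sign. In 4 of the 46 the difference was called in one of the fits: Aco1 at D1 AP+PBS against D0 with median-ratio scaling (-0.060), and Idh1 with T and NK cell and dendritic cell markers as covariate at D0 against NC (-0.85), D1 AP+PBS against D0 (0.79) and D3 AP+PBS against D1 AP+PBS (0.026). The other 42 were called in neither fit. With 1 library left out, 630 of 680 kept both, 23 lost and 12 gained the call and 15 turned sign, none of these called. Of the 2 ratios reported, 14 of 14 alternatives and 125 of 130 with 1 library left out kept both, and 5 turned sign. Causes of the changes below were not tested, except that fewer libraries or genes enter some fits.

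The sign turns called in neither fit had these log2 differences. For D0 against NC, Acod1 had -2.29 with the acinar covariate, Acly -0.028 with quantile scaling, -0.10 with the acinar and -0.055 with the neutrophil covariate, and Idh1 -0.41 with the lymphocyte covariate. Slc25a1 had -0.023 without acinar genes, -0.0021 with limma-voom and -0.15 with the T and NK cell and dendritic cell covariate. For D1 AP+PBS against D0, Acod1 had 1.07 with the acinar, 0.20 with the neutrophil and 0.0011 with the lymphocyte covariate, Idh2 -0.13 with median-ratio scaling and -0.022 with the acinar covariate, Idh1 0.57 with the lymphocyte covariate and Slc25a1 0.067 with the T and NK cell and dendritic cell covariate. For D3 AP+PBS, Cs had -0.084 against D1 AP+PBS and -0.072 against NC with the lymphocyte covariate, -0.34 and -0.16 with the macrophage covariate, and -0.29 and -0.13 with the T and NK cell and dendritic cell covariate. For D1 AP+PBS against NC, Idh1 had -0.043 with quantile scaling, -0.036 with the replicate block, -0.047 with the macrophage and -0.054 with the T and NK cell and dendritic cell covariate. There Acod1 had -1.22 with the acinar covariate and -0.16 without D1 libraries 5 and 6 of both arms, and Acly 0.0071 with the block and 0.0091 without those libraries. For lactate at day 1, Acly had -0.017 with quantile scaling, -0.016 with the neutrophil, -0.047 with the lymphocyte, -0.15 with the macrophage and -0.070 with the T and NK cell and dendritic cell covariate. Cs had -0.021, -0.13 and -0.16 with the last 3 of these covariates, and Slc25a1 0.0044 with the neutrophil and 0.037 with the T and NK cell and dendritic cell covariate. For lactate at day 3, Acod1 had -0.82 with the acinar covariate and Idh1 -0.086 with the T and NK cell and dendritic cell covariate, with which the difference of the lactate effects was -0.040 for Idh1. With 1 library left out, differences whose sign turned ranged from -0.029 to 0.023 for Slc25a1 and -0.015 to 0.14 for Acly at D0 against NC, and from -0.095 to 0.17 for Idh1 and -0.13 to 0.027 for Acly at D1 AP+PBS against NC. For lactate at day 1 they ranged from -0.082 to 0.028 for Slc25a1, -0.035 to 0.093 for Acly and -0.11 to 0.018 for Ogdh. The ratio of Idh1 to Idh2 ranged from -0.047 to 0.21 for D3 AP+PBS against NC and from -0.18 to 0.094 for lactate at day 3.

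For D0 against NC (2 members, 7309 genes called), members called were 0 with quantile scaling, 4 with median-ratio scaling, 0 with the acinar covariate (3272 genes), 0 with the neutrophil covariate, 5 with only the groups compared, 4 with the macrophage covariate and 4 with the T and NK cell and dendritic cell covariate (3813 genes). For D1 AP+PBS against D0 (1 member, 7521 genes), they were 0 without the filter, 0 with quantile scaling, 5 with median-ratio scaling, 0 with the acinar and 0 with the neutrophil covariate, 3 with the lymphocyte covariate (4833 genes), 3 without D1 libraries 5 and 6 of both arms, 3 with the macrophage covariate and 3 with the T and NK cell and dendritic cell covariate (3580 genes). For D3 AP+PBS against D1 AP+PBS (3 members, 4103 genes), the macrophage covariate gave 0 members and 183 genes, and the T and NK cell and dendritic cell covariate 0 and 25. For D1 AP+PBS against NC (1731 genes), the lymphocyte covariate gave 2781 genes. For D3 AP+PBS against NC (3 members, 2535 genes), the macrophage covariate gave 1 member and 1091 genes, and the T and NK cell and dendritic cell covariate 0 and 440.

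For lactate at day 1 (4 members, 1162 genes), members and genes called were 2 and 616 without the filter, 1 and 452 with the neutrophil covariate, 0 and 0 with only the groups compared (2282 genes at an unadjusted p under 0.05), 0 and 0 with the macrophage covariate (2415) and 0 and 25 with the T and NK cell and dendritic cell covariate. Without D1 libraries 5 and 6 of both arms 3426 genes were called. For lactate at day 3 (0 members, 45 genes), genes called were 11 with a pseudocount of 0.1, 104 without the filter, 21 with the stricter filter, 210 with quantile and 76 with median-ratio scaling, 574 with the acinar, 27 with the neutrophil and 461 with the lymphocyte covariate (1 member), 8 with only the groups compared, 24 with limma-voom, 1117 with the macrophage covariate (4 members) and 83 with the T and NK cell and dendritic cell covariate. For the difference of the lactate effects (2 members, 1280 genes), members called were 4 with quantile scaling, 4 with the lymphocyte covariate (2208 genes), 1 with only the groups compared (546 genes), 5 without D1 libraries 5 and 6 of both arms (3408 genes), 4 with the macrophage covariate and 0 with the T and NK cell and dendritic cell covariate (50 genes).

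Replicate numbers did not pair the libraries throughout: of 28 pairs across groups 11 correlated above 0.1 and 10 below -0.1 (r from -0.53 to 0.61). Between the day 1 lactate and PBS groups, replicates 2, 3, 5 and 6 had r = 0.49, 0.61, 0.35 and 0.53. Replicates 1 and 4 had -0.34 and -0.21. Whether equal numbers share a batch at day 1 is not given in the labels and was not tested. With the replicate block 0 members were called for D1 AP+PBS against D0 and 122 genes for lactate at day 3. For D0 against NC the block gave 2 members, as without it, but Idh2 lost the call (-0.35, adjusted p = 0.060) and Ogdh gained it (0.34, 0.029). No other call of a member changed.

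With 1 library left out, members called ranged from 1 to 3 for D0 against NC (6181 to 7079 genes), 0 to 3 for D1 AP+PBS against D0 (7027 to 7543), 3 to 3 for D3 AP+PBS against D1 AP+PBS (2996 to 4660), 0 to 0 for D1 AP+PBS against NC (937 to 1933), 2 to 3 for D3 AP+PBS against NC (1188 to 2335), 1 to 4 for lactate at day 1 (191 to 2380), 0 to 0 for lactate at day 3 (0 to 163) and 1 to 4 for the difference (622 to 2262). The lowest number of fragments behind an Acod1 level was 79, in D1 AP+PBS 1.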
